A study of Mus musculus with 12 samples.

Results

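Rag1, Rag2, Dntt and Ptcra, 4 genes that act while a thymocyte builds its antigen receptor, were followed on 12 Affymetrix mouse arrays of thymocytes from reaggregate thymic organ culture (RTOC), in which thymocytes are put back together with thymic stroma. They are 4 of the 8251 genes named on the array, and every probe set (the group of probes that reads one transcript) whose platform symbol is one of the 4 was taken. These were 7 of the 12422 probe sets that are not controls, namely 2 of Rag1, 1 of Rag2, 3 of Dntt and 1 of Ptcra. By their labels the arrays form 3 groups of 4, with numbers 1 to 4 in each, all sampled on day 6. HY_high held thymocytes with the HY T cell receptor, cultured with Smcy peptide at 1e-05 M. HY_low held HY thymocytes with the same peptide at 1e-07 M. OT1 held thymocytes with the OT1 receptor, and no peptide is named for them. HY and OT1 are transgenic receptors restricted by class I molecules, HY recognising a male peptide from Smcy and OT1 a peptide of ovalbumin. HY_high against HY_low therefore sets peptide doses against each other, while both comparisons with OT1 change the receptor as well. Strain, age, sex and the promoters of the transgenes are not given in the sources used here.

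T cell receptor genes are assembled from V, D and J segments in the thymus. The RAG1 and RAG2 proteins form the recombinase that cuts the DNA beside these segments, RAG1 carrying the catalytic site and RAG2 a domain that reads a chromatin mark of active genes. Dntt encodes terminal deoxynucleotidyl transferase, which adds nucleotides without a template at the joins and so widens the range of receptors. Ptcra encodes the pre-TCR alpha chain, an invariant partner that pairs with a new beta chain at the double-negative stage, before an alpha chain exists. Double-positive thymocytes express Rag1 and Rag2 again to rearrange the alpha locus, and signals through a selected receptor end this expression. E proteins, transcription factors that bind the E box (CANNTG), act on several of these genes, and Id proteins hold E proteins back.

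Rag1 and Rag2 lie next to each other on mouse chromosome 2, on opposite strands and with no other gene wholly between them in the RefSeq annotation, although Iftap overlaps the start of Rag2. The promoters of Rag1 and Dntt are shown because only these genes gave any intensity of 8 or more. The sequences are RefSeq's (GRCm38.p6), the 250 bases before the gene start, written 5′ to 3′ with each E box in capitals. The Rag1 window is chr2:101649533-101649782 on the minus strand, and the Dntt window is chr19:41029025-41029274 on the plus strand.
Rag1: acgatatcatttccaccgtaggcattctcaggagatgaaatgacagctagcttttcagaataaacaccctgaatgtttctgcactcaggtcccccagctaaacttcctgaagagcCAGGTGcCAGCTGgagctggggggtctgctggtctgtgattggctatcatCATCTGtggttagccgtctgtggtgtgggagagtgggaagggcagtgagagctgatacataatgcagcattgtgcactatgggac
Dntt: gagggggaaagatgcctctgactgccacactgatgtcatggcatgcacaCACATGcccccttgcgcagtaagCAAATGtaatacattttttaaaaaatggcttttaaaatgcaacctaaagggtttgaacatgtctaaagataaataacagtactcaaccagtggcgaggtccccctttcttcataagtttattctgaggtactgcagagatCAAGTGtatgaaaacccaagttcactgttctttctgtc

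The Rag1 window held 3 E boxes, starting at positions -135, -128 and -85, where -1 is the base before the gene start. The Dntt window also held 3, at positions -201, -178 and -38. By the same search on both strands Rag2 held 1 and Ptcra 2, and 66.2% of the 32851 promoters in the table held at least 1. The form CAGNTG was found 3 times in Rag1, 2 times in Ptcra and 0 times in Rag2 and Dntt, against 44.8% of all promoters with a match. The Runx motif TGTGGT occurred at positions -81 and -67 of Rag1, the first overlapping an E box by its letters, and in 0 of the other 3 windows, with 14.0% of all promoters holding it. The Myb motif AACNG was found in Rag2 and Dntt, 2 matches each, but not in Rag1 or Ptcra, and 74.2% of promoters held it. TATAAA was in none of the 4 windows and in 12.4% of all promoters.

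Most of the members' signal lay at the bottom of the scale. The deposited intensities have a lowest value of 1, and 66.4% of all values in the table were under 8, an intensity used here to mark dim values. Of the 84 member values 75 were under 8 and 19 were at 1. The 9 values at 8 or above belonged to 1 probe set of Rag1 and 1 of Dntt, with 0 of 28 in HY_high, 4 of 28 in HY_low and 5 of 28 in OT1. The other 5 probe sets stayed under 8 on every array, the highest value being 7.07. In this they were like 49.9% of all probe sets, so these arrays give little information on Rag2 and Ptcra. Thymocyte RNA itself was measured, since 7 of 7 matched thymocyte markers (Cd3d, Cd3e, Cd3g, Thy1, Ptprc, Cd2 and Cd5) reached 8 in each group. Their summed intensity ran from 823 to 1321 in HY_high, from 969 to 2105 in HY_low and from 1013 to 1750 in OT1. With the arrays' number as a block, Thy1 was lower in HY_high than in HY_low (-1.24 ± 0.43, limma adjusted p = 0.0126 with the block) and than in OT1 (-1.21 ± 0.43, limma adjusted p = 0.00564 with the block), and Cd2 was lower than in OT1 (-1.05 ± 0.55, limma adjusted p = 0.0402 with the block). Without the block 0 of the 7 passed by limma, and 1 had an unadjusted p under 0.05 in each HY_high comparison. Here and below, each SE is that of a fit without the block, also where a p with the block stands beside it.

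**Figure D1:**
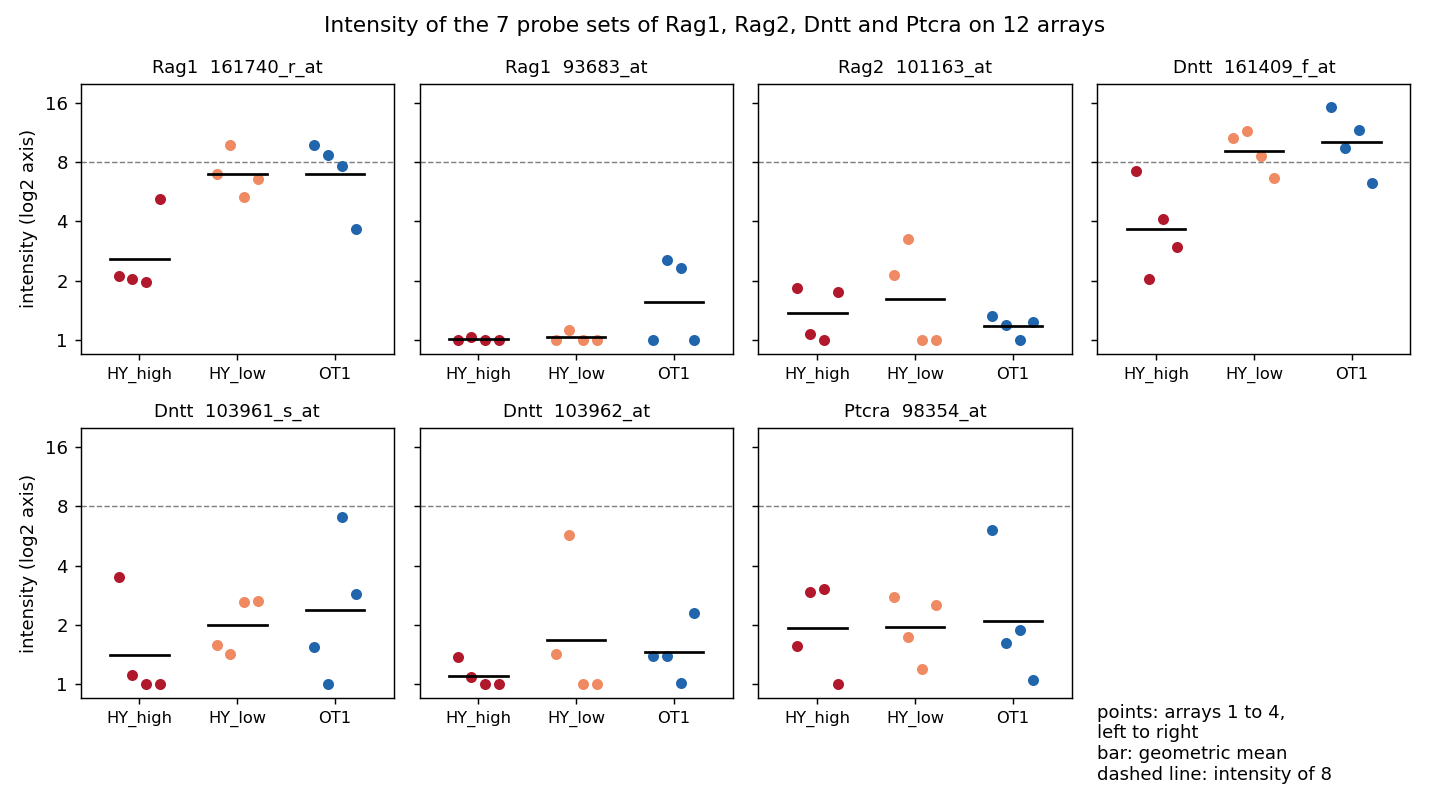
Intensity (log2 axis) of each of the 7 probe sets in HY_high, HY_low and OT1. Points are arrays 1 to 4 from left to right, bars are geometric means and the dashed line marks 8; only Rag1 161740_r_at and Dntt 161409_f_at have points at or above the line, and 0 of these are in HY_high.

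For Rag1, the catalytic subunit, the brighter probe set was 161740_r_at. On arrays 1 to 4 its intensity was 2.11, 2.04, 1.98 and 5.18 in HY_high, 6.96, 9.80, 5.34 and 6.58 in HY_low, and 9.73, 8.74, 7.60 and 3.67 in OT1. HY_high did not overlap HY_low, although HY_high array 4 at 5.18 lay just under HY_low array 3 at 5.34, and it overlapped OT1 through OT1 array 4. The geometric mean was 2.58 in HY_high, 7.00 in HY_low and 6.98 in OT1.

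Tested with limma over all 8695 probe sets past the filter on dim signal, the log2 difference of this Rag1 probe set between HY_high and HY_low was -1.44 ± 0.48 (SE, n = 4 per group), with a 95% interval from -2.45 to -0.43. It did not pass (unadjusted p = 0.00789, limma adjusted p = 1, or 0.245 with the array number as a block). Between HY_high and OT1 it was -1.44 ± 0.48, with an interval from -2.45 to -0.43 (limma adjusted p = 0.658). HY_low and OT1 differed by 0.00 ± 0.48, with an interval from -1.01 to 1.01 (limma adjusted p = 1).

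Arrays of the same number are alike across the groups, so the differences were also read within each number. For this Rag1 probe set, HY_high minus HY_low was -1.72, -2.26, -1.43 and -0.35 in numbers 1 to 4. HY_high minus OT1 was -2.21, -2.10, -1.94 and 0.50. Number 4 thus stood apart in both, with the smallest difference from HY_low and the opposite sign against OT1. Without HY_high array 4 the log2 differences were -1.78 from HY_low and -1.77 from OT1. Of all tested probe sets 9.76% were lower in HY_high than in HY_low within every number, and in 0.782% the HY_high arrays lay wholly below those of HY_low.

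The other Rag1 probe set, 93683_at, was at 1 on most arrays. It read 1, 1.04, 1 and 1 in HY_high, 1, 1.13, 1 and 1 in HY_low, and 1, 2.54, 2.33 and 1 in OT1. Arrays 2 and 3 of OT1 were the only ones above 2. It fell under the filter, and fitted without the filter its log2 difference was -0.03 ± 0.28 between HY_high and HY_low and -0.63 ± 0.28 between HY_high and OT1 (limma adjusted p = 1 for both). With 6 of the 8 HY arrays at the lowest value of 1, a level lower in HY_high than in HY_low could not have been seen on it. The suffix _r of the brighter probe set marks probes chosen under relaxed design rules.

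Rag2, the partner of Rag1 in the recombinase, had 1 probe set (101163_at), and it fell under the filter. Its intensity was 1.84, 1.08, 1 and 1.76 in HY_high, 2.14, 3.24, 1 and 1 in HY_low, and 1.32, 1.19, 1 and 1.23 in OT1. The 3 groups overlapped, and all 12 values were below 4. Fitted without the filter, the log2 difference was -0.25 ± 0.37 between HY_high and HY_low, 0.21 ± 0.37 between HY_high and OT1, and 0.46 ± 0.37 between HY_low and OT1 (limma adjusted p = 1 for each). The highest value, 3.24, was on HY_low array 2. That array had 5.17% of its values at 1, against 8.61%, 22.2% and 22.4% on HY_low arrays 1, 3 and 4, and the part this plays in its dim values was not tested.

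For Dntt, the enzyme that adds untemplated nucleotides, the brighter probe set was 161409_f_at. Its intensity was 7.21, 2.05, 4.12 and 2.97 in HY_high, 10.55, 11.52, 8.61 and 6.63 in HY_low, and 15.21, 9.45, 11.6 and 6.30 in OT1. All 4 HY_high arrays were under 8, against 1 array each of HY_low and OT1. The groups overlapped only because HY_high array 1, at 7.21, was above array 4 of HY_low and of OT1. The geometric mean was 3.67 in HY_high, 9.13 in HY_low and 10.1 in OT1.

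The log2 difference of this Dntt probe set was -1.32 ± 0.48 (SE, n = 4 per group) between HY_high and HY_low, with a 95% interval from -2.32 to -0.31. It did not pass (unadjusted p = 0.0134, limma adjusted p = 1, or 0.170 with the block). Between HY_high and OT1 it was -1.46 ± 0.48, with an interval from -2.47 to -0.46 (unadjusted p = 0.00686, limma adjusted p = 0.615, or 0.0671 with the block). The block value of 0.0671 was the lowest adjusted p of any member in any comparison or alternative. Between HY_low and OT1 the difference was -0.15 ± 0.48, with an interval from -1.16 to 0.86 (limma adjusted p = 1).

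Within numbers 1 to 4, HY_high minus HY_low was -0.55, -2.49, -1.06 and -1.16 for this Dntt probe set. HY_high minus OT1 was -1.08, -2.20, -1.49 and -1.08. It was lower in HY_high within 4 of 4 numbers in both comparisons, which share the HY_high arrays. The same holds for 9.76% of tested probe sets against HY_low and for 8.74% against OT1. HY_low minus OT1 was -0.53, 0.29, -0.43 and 0.07, with 2 numbers in each direction.

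**Figure D2:**
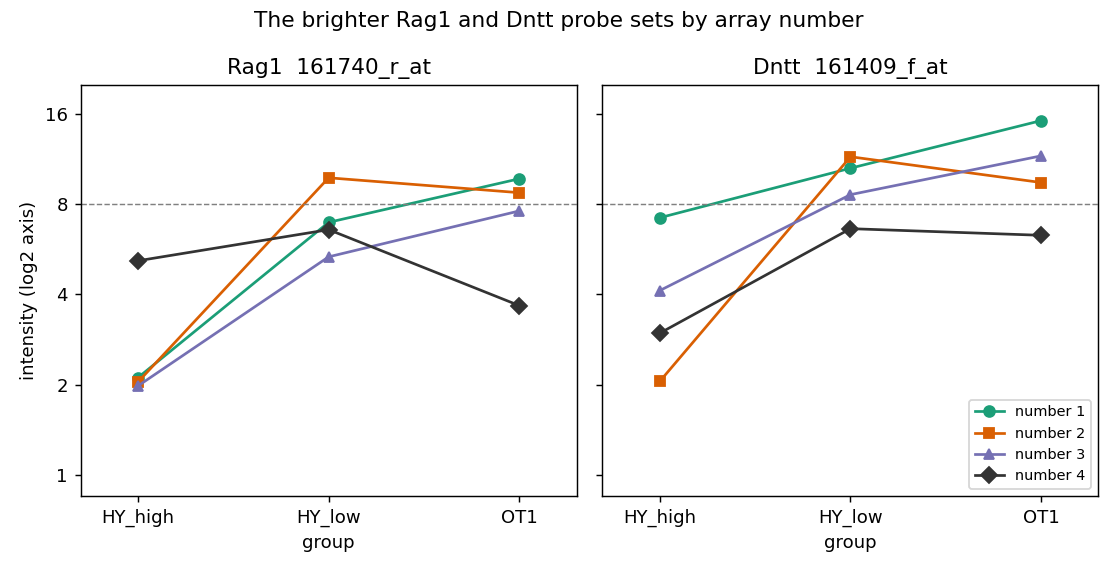
Intensity (log2 axis) of the brighter Rag1 and Dntt probe sets, with lines joining arrays of the same number across HY_high, HY_low and OT1. Dntt is lower in HY_high within all 4 numbers in both comparisons, while for Rag1 the array numbered 4 is higher in HY_high (5.18) than in OT1 (3.67), unlike the other numbers.

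With intensities under 8 set to 8, a floor that leaves only what lies above the dim range, the differences between HY_high and HY_low shrank to -0.07 ± 0.08 for Rag1 161740_r_at and -0.26 ± 0.18 for Dntt 161409_f_at. Between HY_high and OT1 they were -0.10 ± 0.08 for Rag1 and -0.43 ± 0.18 for Dntt (limma adjusted p = 1 for all 4). The lower HY_high values of both probe sets thus lie mostly in intensities below the mark.

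The remaining Dntt probe sets were dimmer still. On 103961_s_at the intensity was 3.50, 1.12, 1 and 1 in HY_high, 1.59, 1.42, 2.63 and 2.66 in HY_low, and 1.55, 1.01, 7.07 and 2.88 in OT1. HY_high array 1 was the highest of its group and lay above all 4 HY_low arrays, so the groups overlapped. The log2 difference was -0.50 ± 0.59 between HY_high and HY_low and -0.76 ± 0.59 between HY_high and OT1 (limma adjusted p = 1 for both).

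On 103962_at, which fell under the filter, the intensity was 1.38, 1.09, 1 and 1 in HY_high, 1.42, 5.73, 1 and 1 in HY_low, and 1.40, 1.40, 1.02 and 2.31 in OT1. HY_low array 2 again held the highest value, and without the arrays numbered 2 the difference between HY_low and OT1 changed sign, at -0.41 against 0.20 with them. The log2 difference between HY_high and HY_low was -0.61 ± 0.49 (limma adjusted p = 1, fitted without the filter). It rested on that HY_low array, since without HY_low array 2 it was -0.02. The suffix _f marks probes that can read several members of a sequence family, so the brighter one may not read Dntt alone.

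Ptcra, the pre-TCR alpha chain, had 1 probe set (98354_at), which passed the filter but stayed under 8 on every array. Its intensity was 1.56, 2.94, 3.05 and 1 in HY_high, 2.79, 1.75, 1.20 and 2.52 in HY_low, and 6.05, 1.62, 1.88 and 1.05 in OT1. The groups overlapped throughout, and only OT1 array 1 was above 4. The geometric means were 1.93 in HY_high, 1.96 in HY_low and 2.10 in OT1. The log2 difference was -0.02 ± 0.56 between HY_high and HY_low, with a 95% interval from -1.20 to 1.16, and -0.12 ± 0.56 between HY_high and OT1 (limma adjusted p = 1 for both).

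**Figure D3:**
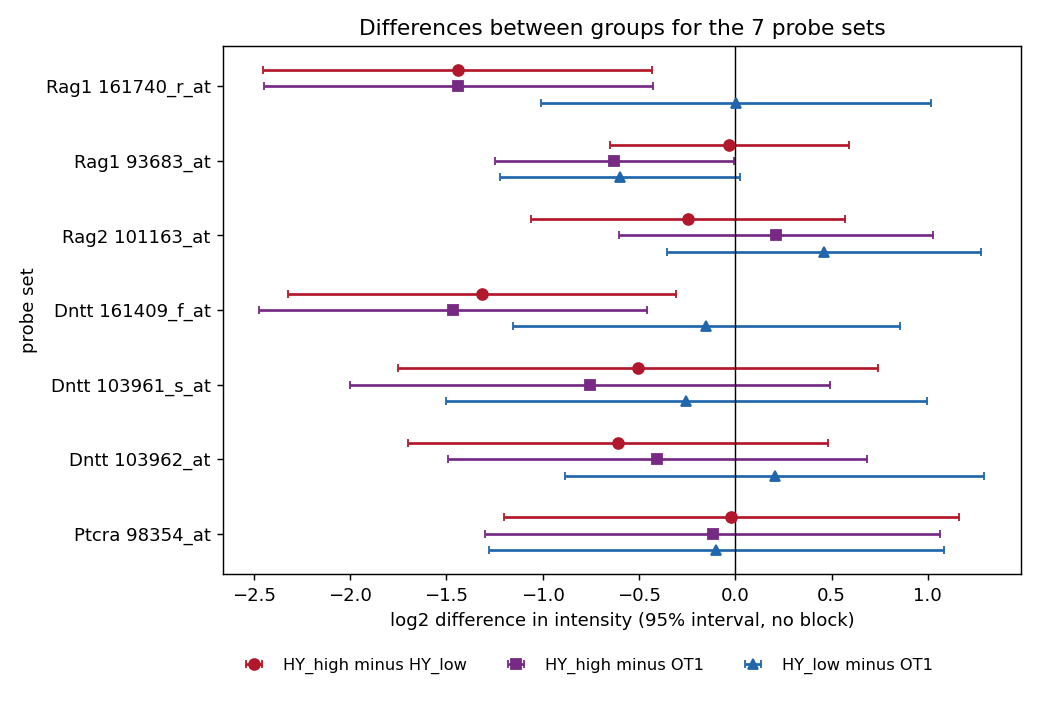
Log2 differences of the 7 probe sets with 95% intervals from limma without the block, for HY_high minus HY_low, HY_high minus OT1 and HY_low minus OT1. The brighter Rag1 and Dntt probe sets lie between -1.46 and -1.32 in both HY_high comparisons, with intervals that are not adjusted for the number of probe sets, and 0 of the 7 passed after adjustment.

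Of the 7 member probe sets 4 passed the filter, and 0 of these 4 passed an adjusted p of 0.05 in any of the 3 comparisons by limma, with or without the block. At an unadjusted p under 0.05 it was 2 of 4 in HY_high against HY_low, 2 of 4 in HY_high against OT1 and 0 of 4 in HY_low against OT1, all from the brighter Rag1 and Dntt probe sets and all lower in HY_high. Over all probe sets tested, an unadjusted p under 0.05 was reached by 2.96%, 4.08% and 2.65% in these comparisons, and by 1.06% and 1.27% in the lower direction for the HY_high comparisons. Adjusted calls were made for 0.023% of probe sets in HY_high against HY_low, 0.173% in HY_high against OT1 and 0.023% in HY_low against OT1, or 0.345%, 1.36% and 0.092% with the block. The HY_high arrays are common to the first 2 comparisons, so their like values are not separate observations. In RNA of many cells read together, fewer cells that express a gene and less RNA per cell cannot be told apart.

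The probe sets most like the brighter Dntt probe set were sought among 3867 probe sets with 1 symbol and at least 6 arrays at 8 or above, with the floor at 8. No other member had 6 such arrays. The likeness was the Pearson correlation of log2 intensity over the 12 arrays, which share groups and numbers, and it is given as a description. With the floor 6 of the 12 Dntt values were tied at 8, all 4 of HY_high among them. For probe sets that were also lower in HY_high, the likeness thus largely restates the difference between the groups. Hdac7, a class IIa histone deacetylase of double-positive thymocytes, came first (r = 0.83, Spearman's rho = 0.88), with geometric means of 30.05 in HY_high, 57.8 in HY_low and 55.5 in OT1. It was followed by Psph, an enzyme of serine synthesis (r = 0.82), Limk1, a kinase that acts on cofilin (r = 0.79), Dlst, a subunit of a mitochondrial dehydrogenase (r = 0.79), and Npc2, a lysosomal cholesterol carrier (r = 0.79). Npc2 averaged 211 in HY_high, 395 in HY_low and 351 in OT1, and Psph 35.8, 36.9 and 48.7 in the same order, so the likeness to Dntt was not the same in each. Dlst averaged under 8 in every group, at 4.87 in HY_high, 6.34 in HY_low and 6.93 in OT1.

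The rest of the recombination machinery, the ubiquitous factors that bend the DNA, repair the break and join the ends, showed no call among the genes tested. Of 20 such genes 13 were matched and tested, while Hmgb1, Dclre1c, Xrcc4, Lig4, Nhej1, Poll and Dnttip1 had no match. Of those tested, Trp53bp1 and Nbn were under 8 on every array. By limma 0 of the 13 passed in any of the 3 comparisons, with or without the block. At an unadjusted p under 0.05 it was 0 in both HY_high comparisons and 1 in HY_low against OT1. Between HY_high and HY_low 8 had a positive and 5 a negative difference, with a median of 0.08, beside 0.01 for all probe sets tested, and of -0.13 to 0.33 without any 1 array. The smallest p belonged to Xrcc5, the larger subunit of the Ku end-binding complex, at 0.87 ± 0.55 (7.36 in HY_high and 4.02 in HY_low, limma adjusted p = 1), while its other probe set was at 1 on every array. H2ax, the histone that marks DNA breaks, had -0.45 ± 0.42 (30.7 in HY_high and 41.8 in HY_low), and Mre11a, a nuclease of break repair, 0.37 ± 0.52. With the floor at 8 the difference was 0.11 for Xrcc5 and 0.01 for Mre11a, while that of H2ax was unchanged. The list's median was 0.16 between HY_high and OT1 and -0.01 between HY_low and OT1.

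Among 24 transcription regulators of early thymocytes 19 were tested, and 0 passed by limma without the block in any comparison, with 2 at an unadjusted p under 0.05 in HY_high against HY_low, 1 in HY_high against OT1 and 1 in HY_low against OT1. Between HY_high and HY_low 11 were positive and 8 negative, with a median of 0.28 that has no settled sign. Leaving out HY_low array 4 gave -0.11, leaving out HY_high array 3 gave -0.03 and leaving out HY_low array 1 gave -0.02, and within the 4 numbers the medians ran from -0.27 to 0.12. Id2, an inhibitor of E proteins, passed with the block only. Its intensity was 37.8, 82.0, 65.0 and 127 in HY_high and 10.5, 11.9, 9.03 and 54.5 in HY_low. HY_high was higher within 4 of 4 numbers, and the groups overlapped through HY_low array 4. The log2 difference was 2.17 ± 0.68 (limma adjusted p = 1, or 0.0104 with the block). Tcf3, which encodes the E proteins E12 and E47, had -1.67 ± 0.64, at 2.58 in HY_high and 8.23 in HY_low by geometric mean (limma adjusted p = 1, or 0.161 with the block), and it too was dim, with -0.25 under the floor of 8. The other Id gene of the list, Id3, was lower in HY_high than in HY_low, at -0.49 ± 0.43, opposite in sign to Id2. The other E protein genes were opposite in sign to Tcf3. Tcf12 had 0.49 ± 0.74, and Tcf4, under 8 on every array, had 0.52 ± 0.52. Id3, Tcf12 and Tcf4 did not pass with or without the block. Lef1, a factor of the Wnt pathway, had -1.48 ± 0.80 on its brighter probe set and -0.29 on the other. Between HY_high and OT1 the differences were 1.33 for Id2, -1.44 for Tcf3 and -0.23 for Lef1, and none of the 3 passed.

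The genes of the double-negative stage, when Ptcra acts, were split in sign between HY_high and HY_low, but the negative ones were all dim. Of 13 listed 10 were matched and 8 tested, with 4 positive and 4 negative differences and 0 calls by limma, 3 having an unadjusted p under 0.05. The median was 0.27 (0.11 without HY_low array 4, and 0.04 to 1.48 over all alternatives). Lyl1, Igll1, Vpreb1 and Vpreb3, the negative ones, were under 8 on every array, as was Il2ra at 0.64. Those that reached 8 on any array, Kit, Hhex and Il7r, were higher in HY_high, at 1.57, 1.36 and 1.54. With the floor at 8 these were 1.41, 0.22 and 1.54. Kit, the receptor for stem cell factor, passed in 1 comparison with the block, HY_high against OT1. Its intensity was 2.95, 56.6, 17.6 and 28.7 in HY_high and 2.27, 4.66, 1 and 1.90 in OT1, higher within 4 of 4 numbers, with HY_high array 1 in the range of OT1. The log2 difference was 3.01 ± 0.72 (limma adjusted p = 0.204, or 0.00731 with the block), and 1.45 under the floor of 8. Il7r, the interleukin-7 receptor chain, had geometric means of 75.2 in HY_high, 25.8 in HY_low and 79.4 in OT1, and did not pass in any comparison. Vpreb1, part of the surrogate light chain of pre-B cells, was below 8 on all arrays and had -1.19 ± 0.48 between HY_high and HY_low (limma adjusted p = 1), and -0.12 on its other probe set.

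The genes of the double-positive stage, the stage at which Rag1 and Rag2 are expressed again, had mostly lower values in HY_high than in HY_low. Of 11 listed 8 were tested, with 1 positive and 7 negative differences from HY_low and a median of -0.67, beside 0.01 for all probe sets, and 1 passed. Leaving out 1 array at a time moved this median to between -0.97 (without HY_low array 1) and -0.24 (without HY_high array 1). The positive difference was that of Cd4, at 0.05 ± 0.49, a dim gene with 2 of 12 arrays at 8 or above. Of the negative ones Cxcr4 was under 8 on every array, with geometric means of 1.51 in HY_high and 1.66 in HY_low. The gene that passed was Cd8b1, the CD8 beta chain, with geometric means of 4.52 in HY_high, 644 in HY_low and 693 in OT1 (limma adjusted p = 0.000252 against HY_low). Its HY_high values of 8.18, 1, 6.18 and 8.26 were close to or below the mark of 8, so the log2 difference of -7.15 ± 0.75 depends on values near the bottom of the scale, and it was -6.31 under the floor of 8. Cd8a, the alpha chain, had -1.11 ± 0.58, and Cd24a, a surface glycoprotein of immature thymocytes, -0.65 ± 0.48, and neither passed. Between HY_high and OT1 3 were positive and 5 negative, and the median was -0.48, or -0.73 to -0.26 without any 1 array. It was -0.02 with the floor at 8 on probe sets above it on at least 1 array. Cd24a was among the positive ones, at 0.89 ± 0.48, while Cd8a had -1.11 ± 0.58, and neither passed. There was 1 call, or 2 with the block, the added one being Satb1, a chromatin organiser of thymocytes. Satb1 had -1.15 ± 1.10, the SE being that without the block (limma adjusted p = 1, or 0.0470 with the block). Between HY_low and OT1 the median was 0.03 with 0 calls by limma and 1 gene at an unadjusted p under 0.05.

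Partners of the pre-TCR at the cell surface and in its signalling, 9 tested of 10 listed, gave 0 calls by limma in any comparison and 0 genes at an unadjusted p under 0.05. The median difference was -0.04 between HY_high and HY_low, or -0.17 to 0.10 without any 1 array, with the members between -0.35 and 0.45. Fyn, a Src family kinase, had 0.45 ± 0.53, Zap70, the kinase recruited to CD3 chains, -0.35 ± 0.49, and Cd247, the CD3 zeta chain, -0.34 ± 0.54. On 2 further Zap70 probe sets the differences were 0.07 and 0.01.

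**Figure D4:**
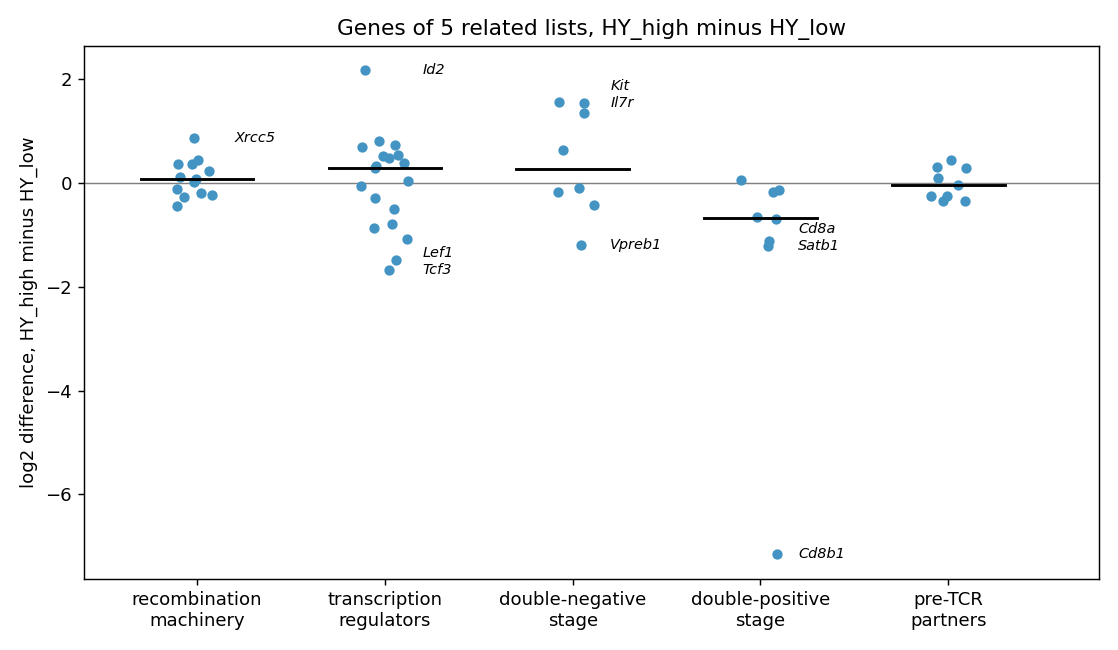
Log2 difference, HY_high minus HY_low, of the tested genes of 5 related lists, each point a gene and each bar the median of a list. The medians are 0.08, 0.28, 0.27, -0.67 and -0.04 from left to right, and Cd8b1 is the only gene among them that passed without the block.

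B cell precursors also express Rag1, Rag2 and Dntt, so their markers are given beside these values. Of 9 B cell markers 8 were matched, and 4 of them in HY_high, 3 in HY_low and 3 in OT1 reached 8 on any array. Ighm and Cd79b were among these in each group. Cd79a, Ebf1, Blnk and Cd22 were under 8 on every array, while Ms4a1 reached 8 on 2 of the 12 arrays and Pax5 on 3. Ighm, at 59.4 to 987 over the arrays, made up most of each sum that follows. The summed intensity ran from 161 to 530 in HY_high, from 81.3 to 635 in HY_low and from 91.9 to 1009 in OT1, ranges that overlap. Between HY_high and HY_low their median log2 difference was -0.01 over 6 tested genes, with 0 calls by limma and 0 at an unadjusted p under 0.05. Thymic stroma markers summed to 30.9 to 62.4 in HY_high, 30.5 to 61.5 in HY_low and 28.1 to 41.7 in OT1, with Krt8, Col1a1 and Col3a1 reaching 8 in HY_high, Col1a1, Col3a1, Dcn and Pdgfra in HY_low, and Col1a1 and Pdgfra in OT1. Col1a1, a collagen chain of fibroblasts, was at 8 or above on 9 of 12 arrays, at 8.42 to 21.4 in HY_high, 7.33 to 24.98 in HY_low and 7.46 to 11.96 in OT1. The epithelial genes Foxn1, Krt5 and Epcam were under 8 on every array. Markers of macrophages and dendritic cells summed to 21.4 to 42.4 in HY_high, 25.0 to 58.2 in HY_low and 19.98 to 29.0 in OT1. The NK cell marker Klrd1 reached 8 in every group, and the 3 matched NK markers summed to 95.6 to 325 in HY_high, 11.6 to 116 in HY_low and 50.8 to 209 in OT1. Ncr1 and Klrk1, the other matched NK markers, were under 8 on every array, so Klrd1 made up most of each sum. Klrd1 had geometric means of 198 in HY_high, 42.9 in HY_low and 99.99 in OT1, a log2 difference of 2.21 ± 0.68 between HY_high and HY_low that did not pass (limma adjusted p = 1, or 0.0958 with the block). Erythroid markers summed to at most 28.4 on any array. The part of other cells in the members' values was not tested.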

How the data were processed

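The authors deposited one table of intensities on a linear scale, 12488 probe sets on 12 arrays, with a lowest value of 1. Background correction, summarisation, scaling and genome build are not given in the sources used here. Median intensity per array ran from 3.33 to 3.97, and values at 1 made up 3.00% (HY_high array 2) to 22.5% (HY_high array 3) of an array. The number of arrays limits the precision. Values were used as deposited, on a log2 scale, without 66 control probe sets. Tests were kept to probe sets whose mean log2 intensity exceeded the 30th percentile, a geometric mean of 1.76, leaving 8695. A model with the 3 groups was fitted in limma (3.58.1, R 4.3.3), with 9 residual degrees of freedom, a variance trend on intensity and two-sided tests. Adjustment was by Benjamini-Hochberg over all tested probe sets at 0.05. The code was tested on simulated data.

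Separate cultures are not stated for the replicates, and p-values then measure only the spread between these arrays. Deviations from the group means correlated at 0.341 to 0.593 in the 12 pairs of arrays that share a number and at -0.40 to 0.163 in the 36 other pairs. The numbers were therefore taken to pair the arrays, on the evidence of the data alone, and a second model, left with 6 residual degrees of freedom, took the number as a block. The titles of HY_high and HY_low also carry different letters of unknown meaning, which cannot be told apart from dose.

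Symbols came from the platform annotation, updated by gene ID: 10833 probe sets had 1 symbol, 396 several and 1193 none. All member probe sets are described. A listed gene was read by its brightest probe set with 1 symbol. Of each of the 5 pathway and stage lists the text names the 3 genes with the smallest p in HY_high against HY_low, and any past the threshold in any comparison. Other listed genes are named where they show a limit or an opposite direction. Members and lists were chosen with earlier results of these data known. Alternatives were the block, a floor at 8, both together, a pseudocount of 16, no filter, quantile and median scaling, array weights, no variance trend, only the groups compared, and leaving out each array. The floor for probe sets above 8 on at least 1 array, and leaving out the arrays numbered 2, were added after the data were seen.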

Additional observations from a re-analysis of the deposited data

Results flagged for a closer look

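In 4 of the 21 sets of 4 arrays (7 probe sets in 3 groups), 1 array was set apart from the other 3 on the log2 scale by Dixon's test at 95%. Chance flags about 1 in 20 sets of untied values, a rate that does not hold where the other 3 arrays are tied at 1, since any other value is then set apart. For Rag1 161740_r_at, HY_high array 4 had 5.18, against 1.98 to 2.11 on the other HY_high arrays. For Rag1 93683_at, array 2 had 1.04 in HY_high and 1.13 in HY_low, where the other 3 arrays of each group were tied at 1, so these say nothing of distance. For Dntt 103961_s_at, HY_high array 1 had 3.50, with the others from 1 to 1.12.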

How the results depend on the processing

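No member passed the adjusted threshold in any of the 72 counts of members taken over 3 comparisons and 24 alternatives. The replicate block, under which the differences are the same, changed no member's call. The signs of Rag1 161740_r_at and Dntt 161409_f_at in both HY_high comparisons were kept under every alternative run. With the floor at 8 on probe sets above it on 4 arrays, only Dntt 161409_f_at among the members could be fitted. Of 444 member differences 27 changed sign, all small and none past the threshold, and the cause was not tested. For HY_low against OT1 they were, on Rag1 161740_r_at, -0.029 with the floor at 8, -0.012 with the pseudocount, -0.0035 with quantile normalization and -0.050 without the arrays numbered 2, and on Dntt 103962_at -0.084 with array weights and -0.41 without the arrays numbered 2. With array weights Ptcra gave 0.073 for HY_high against HY_low, 0.14 for HY_high against OT1 and 0.068 for HY_low against OT1, and with the pseudocount 0.0049 for the first. Rag2 gave 0.20 for HY_high against HY_low without the arrays numbered 2.

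Leaving out 1 array at a time gave, for HY_low against OT1, -0.66 to 0.27 on Dntt 103961_s_at, -0.38 to 0.46 on Dntt 103962_at, -0.38 to 0.046 on Dntt 161409_f_at, -0.43 to 0.41 on Ptcra and -0.31 to 0.16 on Rag1 161740_r_at. For HY_high against HY_low it gave -0.26 to 0.30 on Ptcra, -0.045 to 0.014 on Rag1 93683_at and -0.48 to 0.086 on Rag2. For HY_high against OT1 it gave -0.45 to 0.39 on Ptcra.

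The number of all probe sets past the threshold moved by more than 1.5 times under several alternatives. For HY_high against HY_low it was 2, or 30 with the replicate block, 23 with block and floor, 4 with the floor under both filters, 7 with array weights, 7 with the pseudocount, 1 with arrays scaled to one median, 0 without the filter on dim probe sets (limma, with 431 at an unadjusted p under 0.05), 1 without the arrays numbered 2, and 1 to 4 without any 1 array. For HY_high against OT1 it was 15, or 118 with the replicate block, 85 with block and floor, 64 with array weights, 8 with the floor where 1 array exceeds 8, 9 without the filter, 4 without the arrays numbered 2, and 6 to 17 without any 1 array. For HY_low against OT1 it was 2, or 8 with the replicate block, 7 with block and floor and 4 with array weights. Of 360 list medians 34 moved by more than the spread of the within-number medians.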
